A study of Mus musculus with 18 samples.

Results

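Gene expression in the hippocampus of mice lacking Aldh5a1 (Aldh5a1-/-, KO) was compared with that of wild-type mice (WT). The comparison uses 6 of the 18 arrays of the study, namely every array whose title names hippocampus: 3 KO arrays, of the animals numbered 3363, 3389 and 3403, and 3 WT arrays, of animals 3405, 3406 and 3396. The other 12 arrays hold cerebellum and cortex of the same 6 animals. Each array measured total RNA of 1 animal on an Affymetrix mouse chip, and gives a scaled intensity, here called signal, for each of 12488 probe sets. Strain, sex, age, any treatment and how the tissue was cut are not given in the sources used here, so the groups are known by genotype, region and animal number alone.

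Aldh5a1 encodes succinate semialdehyde dehydrogenase, which completes the breakdown of the inhibitory transmitter GABA in mitochondria by turning succinate semialdehyde into succinate. Without it the semialdehyde is reduced to gamma-hydroxybutyrate (GHB), and GABA and GHB build up in the brain. The inherited human deficiency and the knockout mouse both have seizures. Several of the genes described here belong to the integrated stress response, in which phosphorylation of the initiation factor eIF2 slows translation in general but favours the transcription factors ATF4 and ATF5. These bind short sites in target genes for amino acid synthesis, amino acid transport and tRNA charging. Others belong to myelin, the lipid-rich sheath that oligodendrocytes wrap around axons, whose proteins and cholesterol are made in quantity while the young brain matures.

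The knocked-out gene could not be read, because 0 probe sets of the chip were assigned to Aldh5a1, so the genotype rests on the labels. One label calls every sample of the study hippocampus, and the region was therefore taken from the title and the description. All 6 hippocampus arrays had hippocampus arrays as their 5 nearest neighbours by correlation across probe sets. Neurod6, a transcription factor of forebrain excitatory neurons, read 323 to 545 on the 6 arrays, and Wfs1, an endoplasmic reticulum protein abundant in CA1 pyramidal cells, read 686 to 815. The cerebellar markers Gabra6, En2, Cbln1 and Ppp1r17 read 10.9 to 32.3, 40.9 to 73.5, 84.6 to 120 and 21.95 to 56.15. The signals of these markers are not compared with those in cerebellum or cortex here. Pairs of hippocampus arrays correlated at 0.954 to 0.976 across probe sets. Median signal was 63.4 to 64.4 on KO arrays and 58.6 to 61.2 on WT arrays, without overlap. The ratio of 3' to 5' probe sets of Gapdh, a measure of RNA integrity, was 0.797 to 0.904 in KO and 0.812 to 0.890 in WT, and that of actin was 1.27 to 1.40 and 1.09 to 1.46.

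The promoters of the stress genes are shown first, because some of the genes described below carry a match to the binding site of ATF4 and its partners. The core of this site, called CARE, is searched here as TGATGNAA on both strands in the RefSeq promoter windows of GRCm38.p6, which run from 250 bases before to 50 bases after a gene's start. The stretches below are written 5′ to 3′ on the strand of the gene, all 3 genes lying on the minus strand, and the match is in capitals. They lie at chr7:126625543-126625610 for Nupr1, chr1:191183406-191183473 for Atf3 and chr6:7693210-7693262 for Asns.
Nupr1: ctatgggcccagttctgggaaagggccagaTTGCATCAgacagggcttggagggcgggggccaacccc
Atf3: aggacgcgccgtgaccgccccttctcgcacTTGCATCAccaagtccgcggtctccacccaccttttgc
Asns: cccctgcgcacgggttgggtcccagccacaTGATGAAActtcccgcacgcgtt
In Nupr1 and Atf3 the capitals hold the motif on the strand opposite to the gene, and in Asns on the gene's own strand. The motif was found in 4.51% of 27025 genes with a window. Among the lists used below it was found in 4 of 17 stress response genes (Atf3, Gadd45g, Nupr1 and Vldlr), 1 of 8 genes of serine and related synthesis (Asns), 1 of 5 amino acid transporters (Slc1a4) and 5 of 13 aminoacyl-tRNA synthetases (Aars, Gars, Iars, Tars and Yars). The stricter TGATGCAA, which is 1 of the spellings the first motif allows, was found in 1.03% of all genes and in 4, 0, 1 and 4 members of these lists. None of the 8 myelin sheath genes with a window held either motif. No match was found for Atf5 or Slc3a2, though not every tested member of their lists had a window. A match in these letters is a description of the sequence and was not tested for binding.

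Few transcripts of the hippocampus passed the test between the genotypes. Of 8382 probe sets tested with limma, 3 were higher in KO (0.0358%) and 7 were lower (0.0835%) at a Benjamini-Hochberg adjusted p under 0.05. The higher ones were Atf5, Nupr1 and Slc3a2, and the lower ones were Gsn, Cacna1g, Kcne1l, Mag, 1 probe set of Septin4 and a pair of probe sets of Mobp. With each array scaled to its median signal in place of the authors' scaling, the split was 2 higher and 12 lower. At an unadjusted p under 0.05 there were 382 higher and 323 lower probe sets. Over 6249 genes, each read by its brightest probe set, the median log2 difference (KO minus WT) was 0.02, and the 5th and 95th percentiles were -0.39 and 0.46. The 3 KO signals all lay above the 3 WT signals for 10.1% of these genes and all below them for 7.35%. These shares are the background for the counts of groups that do not overlap below. The log2 difference was above 0 for 53.2% of the genes and below 0 for 46.8%, the background for counts of members above and below 0. When only the 6 hippocampus arrays were fitted, leaving 4 residual degrees of freedom, Kcne1l alone of the 10 probe sets still passed. All 3 KO values of Kcne1l lay under the floor of 9.46 and were raised to it. Its KO group therefore held no spread in that fit.

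**Figure D1:**
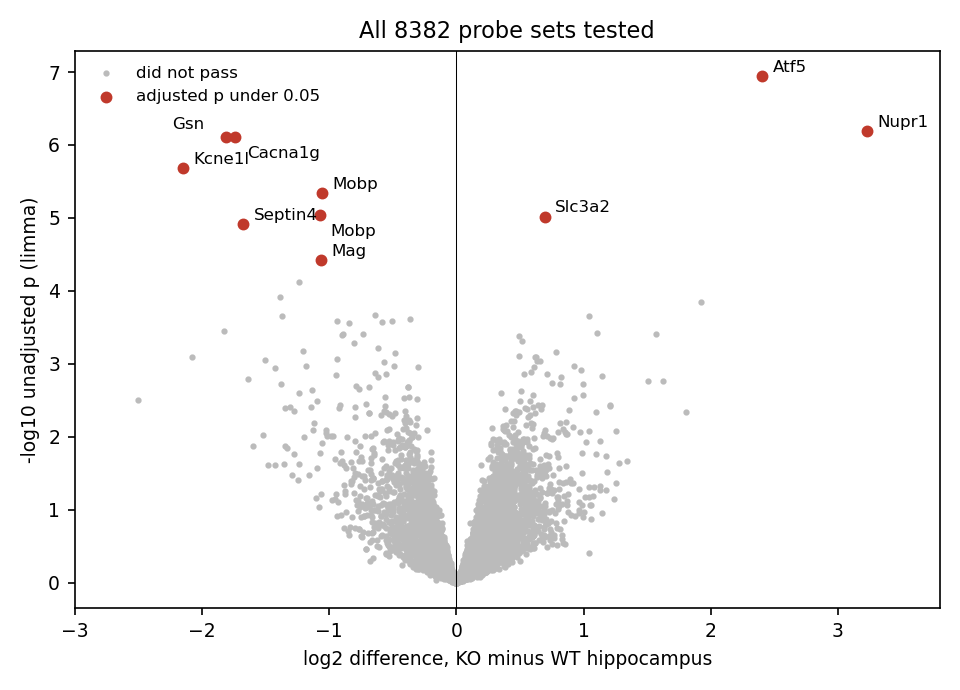
Each point is 1 of 8382 probe sets, with the log2 difference of KO minus WT hippocampus on the horizontal axis and -log10 of limma's unadjusted p on the vertical axis. The 10 probe sets with an adjusted p under 0.05 are red and named: Atf5, Nupr1 and Slc3a2 lie on the right, and the 7 lower ones, with Mobp shown by 2 points, on the left.

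Atf5 and Nupr1 had the largest increases among the probe sets that passed. Atf5, a transcription factor whose translation is favoured under stress, had signals of 217, 430 and 260 on the arrays of KO animals 3363, 3389 and 3403, and of 52.0, 49.7 and 63.0 on those of WT animals 3405, 3406 and 3396. Every KO value was more than 3 times any WT value, and the highest KO value was that of 3389. The log2 difference was 2.41 ± 0.29 (SE, 3 animals a group), a 5.30-fold rise, with an adjusted p of 0.000953 by limma. Nupr1, a small nuclear protein induced by many stresses, read 243, 284 and 205 in KO and 7.03, 45.02 and 40.02 in WT. The groups lay far apart, and the WT value of animal 3405 was under 9.46, the floor to which low signals were raised. The log2 difference of Nupr1 was 3.23 ± 0.44 (adjusted p = 0.00165), and 2.51 without animal 3405. Leaving out any 1 animal kept both genes past the threshold, with log2 differences of 2.12 to 2.61 for Atf5 and 2.51 to 3.63 for Nupr1.

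The remaining stress response genes moved less. Of 25 listed genes of stress-induced transcription and translation control, 19 were tested, and 2 rose, 0 fell and 17 did not pass. The median log2 difference was 0.20, against 0.02 over all genes, with 15 members above 0 and 4 below. In 5 of 19 the KO values all lay above the WT values, and in 1 they all lay below. Eif4ebp1 encodes 4E-BP1, a repressor of cap-dependent translation, and read 53.3, 72.4 and 77.5 in KO against 26.2, 8.01 and 22.1 in WT. Its groups did not overlap, with a log2 difference of 1.92 ± 0.40, but it did not pass (adjusted p = 0.0914). Without WT animal 3396 it did, at 2.09 and an adjusted p of 0.0384. Ddit3, also known as CHOP, a transcription factor of prolonged stress, read 120, 132 and 167 in KO and 98.0, 61.4 and 80.4 in WT, without overlap (log2 difference 0.82, adjusted p = 0.242). Atf3, whose promoter stretch is printed above, read 79.7, 119 and 84.5 against 53.0, 54.7 and 62.3, again without overlap (log2 difference 0.72, adjusted p = 0.212). Atf4 itself read 424, 613 and 579 in KO and 469, 427 and 451 in WT, so its groups overlapped through animal 3363. Ddit4, an inhibitor of mTORC1 signalling, was the member whose KO values all lay below, at 382, 427 and 339 against 602, 458 and 510 (log2 difference -0.45, adjusted p = 0.450). Ddit3, Atf3, Atf4 and Ddit4 are named here after their values were seen. Trib3 was left out as too dim, and Chac1, Fgf21, Gdf15, Jdp2 and Sesn2 were assigned no probe set.

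**Figure D2:**
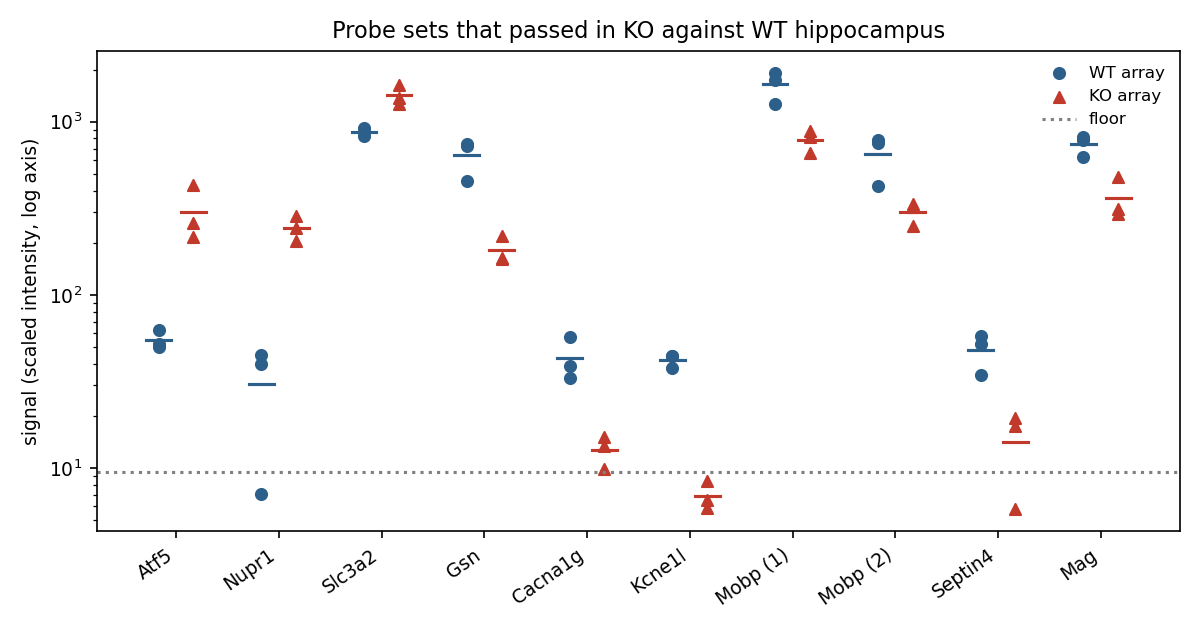
Signal on a log axis for the 10 probe sets that passed, with WT arrays as blue circles, KO arrays as red triangles, group means as short lines and the floor of 9.46 as a dotted line. Mobp (1) is the brighter of 2 Mobp probe sets. For each probe set the 3 KO values lie on one side of the 3 WT values.

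Slc3a2 rose, and the other amino acid transporters were mixed in direction. Slc3a2 encodes CD98 heavy chain, which carries several light chains that exchange amino acids to the cell surface. It read 1268, 1379 and 1637 in KO and 830, 878 and 925 in WT, without overlap. The log2 difference was 0.70 ± 0.11, a 1.62-fold rise (adjusted p = 0.0101). It was 0.66 (adjusted p = 0.125) without animal 3405, 0.70 (adjusted p = 0.133) without 3406, 0.61 (adjusted p = 0.0551) with median scaling, and 0.70 (adjusted p = 0.0580) with no intensity trend. Slc7a5 encodes LAT1, the light chain that takes up large neutral amino acids in partnership with Slc3a2. It read 583, 917 and 930 in KO and 509, 528 and 544 in WT. The groups did not overlap and KO animal 3363 stood close to WT. Its log2 difference was 0.59 (adjusted p = 0.212), and without 3363 it passed at 0.81 (adjusted p = 0.0193). Slc1a4, a transporter of serine, alanine and other neutral amino acids that holds the motif in its promoter window, had a difference of 0.32 with no overlap, and Slc38a2, a sodium-coupled neutral amino acid transporter, had one of -0.36 with no overlap. Of 9 transporters tested, of 17 listed, 1 rose, 0 fell and the median was 0.18.

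Enzymes of serine synthesis and mitochondrial folate metabolism had log2 differences mostly above 0, and none passed. Psph, the last enzyme of serine synthesis, read 322, 403 and 419 in KO and 267, 269 and 259 in WT (log2 difference 0.52, adjusted p = 0.141). Mthfd2, a mitochondrial folate enzyme, read 174, 202 and 221 against 119, 122 and 105 (0.78, adjusted p = 0.176). In both genes all KO values lay above all WT values, and animal 3363 had the lowest of the KO values. Psat1, the middle enzyme of serine synthesis, had a log2 difference of 0.38, and Asns, asparagine synthetase, one of 0.20 on its brightest probe set and 0.81 on a dimmer one whose groups overlapped. Phgdh, the first enzyme of serine synthesis, had a difference of -0.04 at low signals of 27.4 to 36.6. Of 8 genes tested, of 15 listed, 7 were above 0, 4 had KO values wholly above WT, 0 passed and the median was 0.21.

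The aminoacyl-tRNA synthetases, which charge tRNAs and of which 5 held the motif, had a median log2 difference of 0.00, with 10 above 0 and 9 below. On their brightest probe sets the 5 with the motif lay between -0.05 (Iars) and 0.02 (Aars). Another probe set of Yars had a difference of 0.34. None of the 19 tested passed. The largest differences were those of Eprs (0.50, overlapping) and Lars, whose values were 263, 275 and 276 in KO against 213, 213 and 213 in WT (0.35, adjusted p = 0.283). Endoplasmic reticulum chaperones, which mark the separate response to misfolded proteins, had a median of -0.13. Of 14 tested, 3 were above 0 and 11 below. Canx, a lectin chaperone, was wholly higher in KO at 308, 240 and 249 against 187, 198 and 198 (0.44, adjusted p = 0.566), although its other probe set showed 0.00. Manf, a secreted factor of endoplasmic reticulum stress, was wholly lower at 242, 259 and 296 against 341, 327 and 320 (-0.31, adjusted p = 0.590). Heat shock proteins had a median of -0.05 over 14 members, none of which passed.

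Mobp and Mag, both genes of the myelin sheath, fell in KO. Mobp encodes a cytoplasmic protein of compact myelin and is read by 4 probe sets. The brightest read 820, 656 and 881 in KO and 1733, 1923 and 1272 in WT. The groups did not overlap, KO animal 3389 was lowest, and WT animal 3396 was the lowest of its group. The log2 difference was -1.05 ± 0.16 (adjusted p = 0.00646). A second Mobp probe set read 321, 251 and 336 against 782, 754 and 425 and fell by 1.07 (adjusted p = 0.0101). The other 2 Mobp probe sets showed differences of -1.37 and -0.89 and did not pass (adjusted p = 0.112 and 0.124). Mag, an adhesion molecule of the innermost myelin membrane, read 295, 314 and 477 in KO and 818, 785 and 625 in WT. These values did not overlap, and the difference was -1.06 ± 0.20 (adjusted p = 0.0320). A dim second probe set of Mag, with means of 55.8 and 36.9, went the other way. Its KO values lay wholly above WT, with a difference of 0.59 that did not pass. In bulk tissue, fewer cells of a type and less RNA per cell cannot be told apart.

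These myelin calls did not hold in every fit. The first Mobp probe set did not pass without 3389 (-0.93, adjusted p = 0.123), 3405 (-1.004, 0.125) or 3406 (-0.93, 0.133). The second did not pass without 3363 (-1.12, 0.0509), 3389 (-0.94, 0.149), 3405 (-0.92, 0.211) or 3406 (-0.94, 0.225). Mag did not pass without 3363 (-0.93, 0.166), 3389 (-0.98, 0.337), 3405 (-0.99, 0.125) or 3406 (-1.02, 0.279). The log2 differences themselves stayed between -1.35 and -0.92 in all of these fits. Without the filter on dim probe sets the 3 also missed the threshold (adjusted p = 0.0543, 0.0703 and 0.170), and Mag did so with no intensity trend (0.117).

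The other myelin sheath genes were mostly below 0 too. Mog, a protein of the outer myelin surface, read 233, 121 and 168 in KO and 519, 411 and 292 in WT, without overlap, with a log2 difference of -1.24 (adjusted p = 0.0569). It passed with the animals as a replicate block (adjusted p = 0.0496), without animal 3363 (-1.48, adjusted p = 0.0124) and without 3396 (-1.46, adjusted p = 0.0219). Mal, a lipid raft protein of myelin, read 501, 236 and 313 against 1007, 975 and 676, without overlap (-1.39, adjusted p = 0.0846). Without 3363 it passed at -1.68 (adjusted p = 0.00335). Cldn11, the tight junction protein of the sheath, read 713, 539 and 652 against 1133, 1008 and 829, again without overlap (-0.64, adjusted p = 0.112), and passed without 3396 at -0.76 (adjusted p = 0.0361). Its dim second probe set had a difference of -0.08. Mbp, the major protein that holds the cytoplasmic faces of myelin together, read 2311, 2046 and 2514 in KO and 3577, 3504 and 2116 in WT. Its groups overlapped through WT animal 3396 alone (-0.39, adjusted p = 0.534), and another probe set had a difference of 0.09. Gjb1, a gap junction protein of oligodendrocytes, showed the same arrangement, with 21.3, 23.5 and 20.3 in KO and 56.8, 48.7 and 17.8 in WT. Pmp22, better known from peripheral myelin, was the single member above 0, at 0.21. Of 9 myelin sheath genes tested, of 19 listed, 2 fell, 0 rose, 8 were below 0, 5 had KO values wholly below WT and the median was -0.76. Omg and Opalin were among the listed genes assigned no probe set, and Cnp was left out as too dim.

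Genes of the oligodendrocyte body were mostly below 0 as well, with a median nearer to it. Gsn, gelsolin, which severs actin filaments and is abundant in oligodendrocytes, read 162, 161 and 219 in KO and 743, 726 and 456 in WT. The groups lay more than 2-fold apart, and the log2 difference was -1.81 ± 0.25 (adjusted p = 0.00165). Without animal 3405 it was -1.69 with an adjusted p of 0.0536. Ugt8a, which makes the galactolipids of myelin, read 156, 148 and 173 in KO and 418, 360 and 180 in WT, so that WT animal 3396 nearly met the KO values (-0.92, adjusted p = 0.337). It passed without 3396 at -1.29 (adjusted p = 0.0219). Car2, the carbonic anhydrase of oligodendrocytes, read 640, 695 and 831 against 942, 1026 and 849, without overlap (-0.38, adjusted p = 0.250). Of 17 such genes tested, of 28 listed, 1 fell, 0 rose, 14 were below 0, 7 had KO values wholly below WT and the median was -0.28, or -0.16 without 3389.

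Septin4, a filament-forming GTP-binding protein found at myelin, was read by a pair of probe sets. The dim one read 5.76, 17.4 and 19.3 in KO and 51.7, 34.6 and 57.7 in WT and fell by 1.67 ± 0.28 on the log2 scale (adjusted p = 0.0113). Its identifier ends in f_at, the suffix that Affymetrix gives to probe sets that can match several similar transcripts, and 1 KO value was under the floor. It did not pass without 3363 (-1.36, adjusted p = 0.0901), 3389 (-1.80, 0.0719), 3405 (-1.60, 0.125) or 3396 (-1.52, 0.0777), nor without the filter on dim probe sets (0.0543). The brighter one read 208, 240 and 301 against 544, 490 and 325, with no overlap and a difference of -0.84 that did not pass (adjusted p = 0.112). Without 3396 the brighter one passed at -1.07 (adjusted p = 0.0113).

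Transcription factors and precursors of the lineage showed less. Sox10, which is present throughout the oligodendrocyte lineage, read 219, 289 and 285 in KO and 350, 334 and 253 in WT, with overlap (-0.24). Nkx6-2, which is kept in mature oligodendrocytes, was wholly lower at 43.1, 31.4 and 54.2 against 65.1, 91.8 and 55.1 (-0.72, adjusted p = 0.574). Tcf7l2, a Wnt effector of both maturing oligodendrocytes and thalamic neurons, was wholly higher at 205, 191 and 170 against 161, 143 and 121 (0.41, adjusted p = 0.655). Over 6 lineage factors the median was -0.24, 1 lay wholly above and 1 wholly below WT, and none passed. Pdgfra, the receptor that marks oligodendrocyte precursors, read 421, 447 and 627 in KO and 446, 673 and 545 in WT, with overlap (-0.16), and its dimmer probe set had a difference of 0.41. Vcan, a proteoglycan of precursors, was wholly higher at 133, 137 and 135 against 104, 126 and 126 (0.20). The 5 precursor genes tested had a median of -0.21, or 0.01 without 3363, and none passed.

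Cholesterol synthesis, on which myelin growth draws, had log2 differences below 0 at most of its steps, and none of its genes passed. Hmgcs1, which makes the HMG-CoA that enters the pathway, read 564, 709 and 604 in KO and 1107, 986 and 1013 in WT (-0.73 ± 0.17, adjusted p = 0.124). Idi1, the isopentenyl diphosphate isomerase, read 170, 237 and 231 against 386, 391 and 321 (-0.79, adjusted p = 0.250). Fdps, which joins isoprenoid units, read 464, 503 and 534 against 656, 662 and 661 (-0.40, adjusted p = 0.337). In each of these the KO values lay wholly below the WT values, and KO animal 3363 was the lowest. Sqle, squalene epoxidase, read 301, 458 and 403 against 474, 461 and 690, with the nearest values almost touching (-0.48). Of 16 genes tested, of 23 listed, 14 were below 0, 7 had KO values wholly below WT and the median was -0.40. Without animal 3363 the median was -0.26. Elovl6, a fatty acid elongase, read 195, 172 and 198 against 302, 285 and 261 (-0.59, adjusted p = 0.112), and passed without 3403 at -0.62 (adjusted p = 0.0421). Its other probe set overlapped, with a difference of -0.09. Cers2, which makes the very long chain ceramides of myelin, read 58.3, 33.5 and 42.8 against 74.6, 88.1 and 66.2 (-0.79, adjusted p = 0.363). The 13 genes of fatty acid and sphingolipid synthesis had a median of -0.14, or -0.06 without 3405 and -0.07 without 3363, and none passed.

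Among other markers, Zic1 was high on the same WT arrays as myelin. Summed over the 9 myelin sheath genes, signal was 5289, 4361 and 5512 in KO and 9376, 9153 and 6244 in WT, so animal 3396 had the least myelin signal of the WT group and stood nearest to KO. Zic1, a transcription factor of thalamic, septal and cerebellar neurons that is not an oligodendrocyte gene, read 154, 137 and 169 in KO and 381, 347 and 140 in WT. It was thus high on the same 2 WT arrays, those of 3405 and 3406, on which myelin was highest. Its log2 difference was -0.79 (adjusted p = 0.337), and -1.25 without 3396 (adjusted p = 0.000282). The Zic1 value of 3396 lay within the KO range, so leaving this animal out widens the difference by construction. The 6 thalamic markers tested, of 8 listed and with Zic1 among them, summed to 1207, 1075 and 1075 in KO and 1620, 1265 and 1008 in WT. Zic1 is itself part of these sums. Among the other members, Rgs16 read 145, 111 and 110 in KO and 157, 144 and 144 in WT. Ramp3 read 85.5, 62.8 and 68.9 against 164, 48.6 and 91.4, so it was not high on the array of 3406. Zic1 also belongs to the cerebellum list, whose median was -0.02, with 4 members above 0 and 6 below. The median of the thalamic list was -0.22, and 0.09 without animal 3405, and its member Tcf7l2 was wholly higher in KO, as given above. The 3 striatal markers tested summed to 420, 387 and 402 in KO and 498, 466 and 452 in WT, so for them 3396 stayed above the KO arrays. Whether the pieces of tissue held different amounts of white matter or of neighbouring structures was not tested. Without 3396 the number of lower probe sets was 18 in place of 7, and the median of the myelin list was -1.18.

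**Figure D3:**
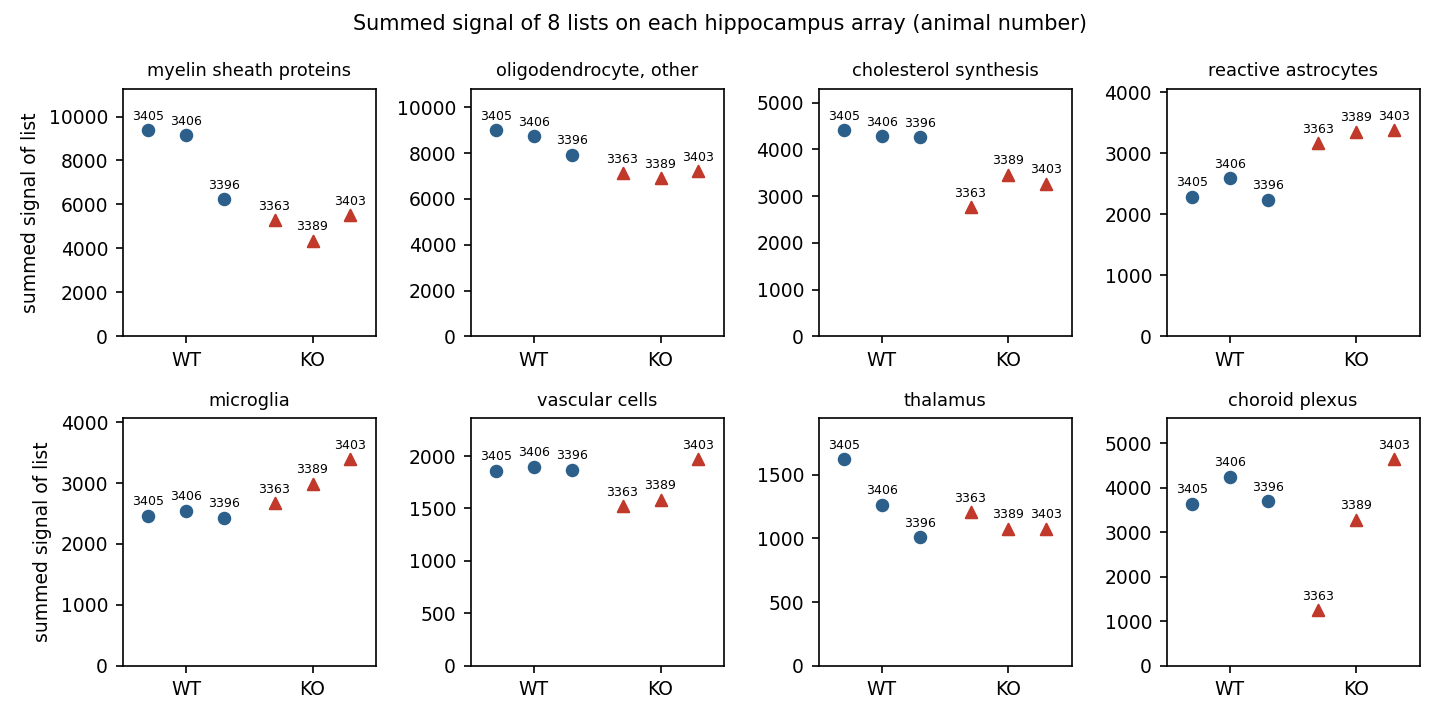
Summed signal of the tested members of 8 lists on each hippocampus array, with WT arrays as blue circles, KO arrays as red triangles and the animal number above each point. Axes start at 0, and oligodendrocyte, other is the list of oligodendrocyte enzymes, membrane and cytoskeleton. The myelin panel shows WT animal 3396 nearest to the KO arrays, and the choroid plexus panel shows KO animal 3363 at 1241, below the other 5 arrays.

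Among voltage-gated channels, 2 of 18 tested genes fell and 0 rose. Cacna1g encodes a pore subunit of the low-threshold T-type calcium channel, which shapes burst firing and is abundant in thalamic relay neurons. It read 9.84, 13.4 and 15.1 in KO and 57.2, 38.8 and 33.2 in WT. The groups did not overlap, the KO values were close to the floor of 9.46, and the log2 difference was -1.74 ± 0.24 (adjusted p = 0.00165). It passed when any 1 animal was left out, with differences of -1.91 to -1.52. Kcne1l, now called Kcne5, an accessory subunit that damps certain potassium channels, read 5.82, 8.40 and 6.51 in KO and 44.3, 44.5 and 37.7 in WT. All KO values were under the floor, so Kcne1l was at least 4.44-fold lower, by the WT mean over the floor (adjusted p = 0.00349). Without animal 3405 it narrowly missed the threshold (adjusted p = 0.0536). Kcnh1, a potassium channel of the ether-a-go-go family, read 9.46, 12.1 and 4.98 in KO and 32.4, 29.99 and 11.9 in WT, again with animal 3396 beside the KO values. With 2 of 3 KO values under the floor, its fitted differences, -1.14 (adjusted p = 0.264) and, without 3396, -1.60 (adjusted p = 0.0102), depend on the floor in size. Apart from these 3, the channels lay between -0.31 and 0.26, and the median of the list was -0.04.

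Markers of reactive astrocytes were mostly above 0, and none passed. Gfap, the intermediate filament of astrocytes, read 395, 785 and 654 in KO and 199, 353 and 366 in WT. The groups did not overlap but nearly met at KO animal 3363, and the log2 difference was 0.99 ± 0.29 (adjusted p = 0.293), with 0.56 and overlap on its other probe set. Osmr, the receptor for oncostatin M, read 52.7, 84.3 and 88.2 against 37.4, 32.4 and 37.1 (1.04, adjusted p = 0.112). It passed without 3363 at 1.28 (adjusted p = 0.0423). Serpina3n, a secreted protease inhibitor, read 1539, 1287 and 1313 against 870, 1153 and 873 (0.52, adjusted p = 0.507), and Timp1, an inhibitor of matrix proteases, had a difference of 0.49. All 4 had KO values wholly above WT. Of 10 tested, of 19 listed, 9 were above 0, 5 lay wholly above WT and the median was 0.35. Genes of astrocyte homeostasis, in contrast, had a median of -0.07 with 6 above 0 and 8 below. Glul, the glutamine synthetase of astrocytes, had signals of 361, 274 and 323 in KO and 501, 344 and 465 in WT on its brighter probe set (-0.44) and a difference of 0.55 on another, so its direction is not settled.

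All 13 microglial genes tested, of 25 listed, were above 0, and none passed. Cd52, a small surface glycoprotein of leukocytes, read 73.1, 90.1 and 91.6 in KO and 34.9, 40.1 and 43.3 in WT. It had the lowest p of the list, with every KO value above every WT value (1.11 ± 0.25, adjusted p = 0.124). Cd68, a lysosomal protein of phagocytes, read 172, 181 and 143 against 110, 100 and 112 (0.62, adjusted p = 0.177). Tyrobp, the signalling adaptor of TREM2, read 122, 184 and 206 against 100, 77.0 and 87.3 (0.93, adjusted p = 0.307), and passed without 3363 at 1.15 (adjusted p = 0.0323). Cd14, a receptor for bacterial lipopolysaccharide, had a difference of 0.58. Csf1r, the growth factor receptor that microglia need to survive, read 325, 320 and 400 in KO and 324, 324 and 394 in WT, a difference of 0.00 (0.40 on another probe set), and C1qa, a complement component, had one of 0.14. The median of the list was 0.28, against 0.02 over all genes, and 6 of 13 lay wholly above WT. Without animal 3405 the median was 0.18. With median scaling, which lowers the median of all probe sets to -0.06, the list's median was 0.20.

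Choroid plexus markers separated 1 KO animal from the rest. Ttr, transthyretin, read 341 in animal 3363 but 1228 and 1907 in the other KO animals and 1475, 1902 and 1158 in WT. Igfbp2, an insulin-like growth factor binding protein, was also lowest in 3363, at 174, with 513 to 623 on the other 5 arrays. Summed over the 6 choroid plexus genes tested, of 14 listed, 3363 stood at 1241 against 3284 to 4636 on the other arrays. All 6 were below 0, none had groups that did not overlap, and the median was -0.45, or -0.02 without 3363. Animal 3363 was also the KO animal nearest to WT for Slc7a5, Gfap and Osmr, and without it 7 probe sets were higher and 6 lower. For Serpina3n, Timp1, Hmgcs1, Idi1, Fdps and Sqle, in contrast, 3363 was the KO animal farthest from WT, so it was not nearest to WT throughout. Among vascular genes, Itm2a, an endothelial membrane protein, was wholly lower in KO at 121, 196 and 190 against 259, 252 and 282 (-0.67, adjusted p = 0.537). Vwf, von Willebrand factor of endothelium, had a difference of -0.37, and the 14 vascular genes had a median of -0.16 with none passing, which was -0.05 without 3363 and -0.34 without 3403. Whether the amount of plexus or vessel in each piece bears on other genes was not tested.

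No list of neuron types, neuropeptides, immediate early genes or synaptic vesicle proteins held a gene that passed. The granule cell markers of the dentate gyrus had a median log2 difference of 0.05, the markers of the CA1, CA2 and CA3 pyramidal fields 0.08, and those of newborn neurons 0.03. These 3 medians turned to -0.03, -0.01 and -0.06 with median scaling. Prox1, the defining transcription factor of granule cells, read 43.4, 41.0 and 34.6 in KO and 40.6, 43.5 and 40.8 in WT. Excitatory forebrain markers had a median of 0.10, and among them Neurod6 was wholly higher in KO, at 545, 473 and 527 against 323, 332 and 429 (0.52, adjusted p = 0.507). Nrgn, a postsynaptic calmodulin-binding protein, overlapped and was lowest in KO animal 3363, at 528 against 876 to 1258 on the other arrays. Interneuron and neuropeptide genes had a median of -0.08, with 6 of 20 wholly lower. Dlx2, a transcription factor of GABAergic interneurons, read 30.6, 24.7 and 31.1 in KO and 45.3, 61.7 and 39.9 in WT (-0.75, adjusted p = 0.516). Npy, neuropeptide Y, read 325, 405 and 416 against 417, 447 and 533 (-0.29, adjusted p = 0.660). Immediate early genes, which report recent neuronal activity, had a median of -0.04, and synaptic vesicle proteins one of -0.01, turning to 0.01 with quantile normalization.

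Genes that make, move and sense GABA had small log2 differences, and none passed. Gad1, which makes GABA from glutamate, read 1519, 1258 and 1305 in KO and 1402, 1419 and 1558 in WT, a difference of -0.10. Slc32a1, the vesicular GABA transporter, read 815, 786 and 828 against 1316, 892 and 837, just without overlap (-0.30, adjusted p = 0.722). Aldh9a1, an aldehyde dehydrogenase able to make GABA from an aldehyde, had a difference of 0.15, and Akr7a5, an aldehyde reductase that can form GHB, one of -0.07. Abat, the transaminase that works just before Aldh5a1, was assigned no probe set. Over the 11 genes tested, of 17 listed, the median was -0.08. Gabbr1, a subunit of the GABA-B receptor through which GHB also acts, read 1133, 1285 and 1290 in KO and 1453, 1618 and 1335 in WT (-0.25, adjusted p = 0.573). The groups did not overlap, though KO and WT came within a few percent of each other. The 11 GABA receptor genes had a median of -0.06. The highest of them, Gabra6 at 0.89, is a cerebellar granule cell subunit with hippocampal signals of only 10.9 to 32.3. Glutamate receptors had a median of -0.09 over 13 genes. Grik1, a kainate receptor subunit, was wholly lower at 27.3, 25.7 and 27.2 against 45.4, 34.2 and 38.7 (-0.55, adjusted p = 0.574). Grin2a, an NMDA receptor subunit, was wholly higher at 72.2, 68.1 and 50.7 against 41.4, 40.2 and 23.0 (0.90, adjusted p = 0.694).

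Energy metabolism and redox lists had medians close to 0, although most respiratory chain genes lay below it. Of 42 respiratory chain and ATP synthase genes tested, 35 were below 0 and 7 above, where 46.8% of all genes were below 0. The median of this list was -0.08 and none passed. Atp5o, a stalk subunit of ATP synthase, read 822, 799 and 938 in KO and 1107, 1021 and 1044 in WT (-0.31 ± 0.09, adjusted p = 0.310). Ndufa1, a small subunit of complex I, was wholly higher at 54.0, 44.0 and 35.9 against 23.2, 26.9 and 22.8 (0.86, adjusted p = 0.398). In the whole list 2 genes lay wholly above WT and 4 wholly below. With quantile normalization the median of this list was -0.04. The 20 tricarboxylic acid cycle genes, the pathway into which Aldh5a1 feeds succinate, had a median of -0.07. Suclg1, which makes succinate from succinyl-CoA in that cycle, read 485, 528 and 516 against 604, 636 and 571 (-0.24, adjusted p = 0.566). Hmox1, heme oxygenase 1, a gene of oxidative defence, read 329, 360 and 411 in KO and 229, 255 and 234 in WT, well apart (0.61, adjusted p = 0.196). The 24 genes of glutathione and oxidative defence had a median of 0.06, which turned to -0.02 with median scaling. Ckmt1, the mitochondrial creatine kinase, read 310, 384 and 391 against 471, 421 and 514 (-0.38, adjusted p = 0.440), while its dimmer probe set was wholly higher (0.25). Tsc22d3, also called GILZ and induced by glucocorticoids, read 15.8, 16.4 and 25.9 in KO and 47.2, 40.7 and 40.5 in WT (-1.18 ± 0.30, adjusted p = 0.196). Its groups were far apart on a dim probe set, and Sgk1, a kinase likewise induced by glucocorticoids, was wholly lower too (-0.43, adjusted p = 0.465). The 12 glucocorticoid-induced genes had a median of -0.14, or -0.25 without 3389 and -0.06 without 3403, and none passed.

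**Figure D4:**
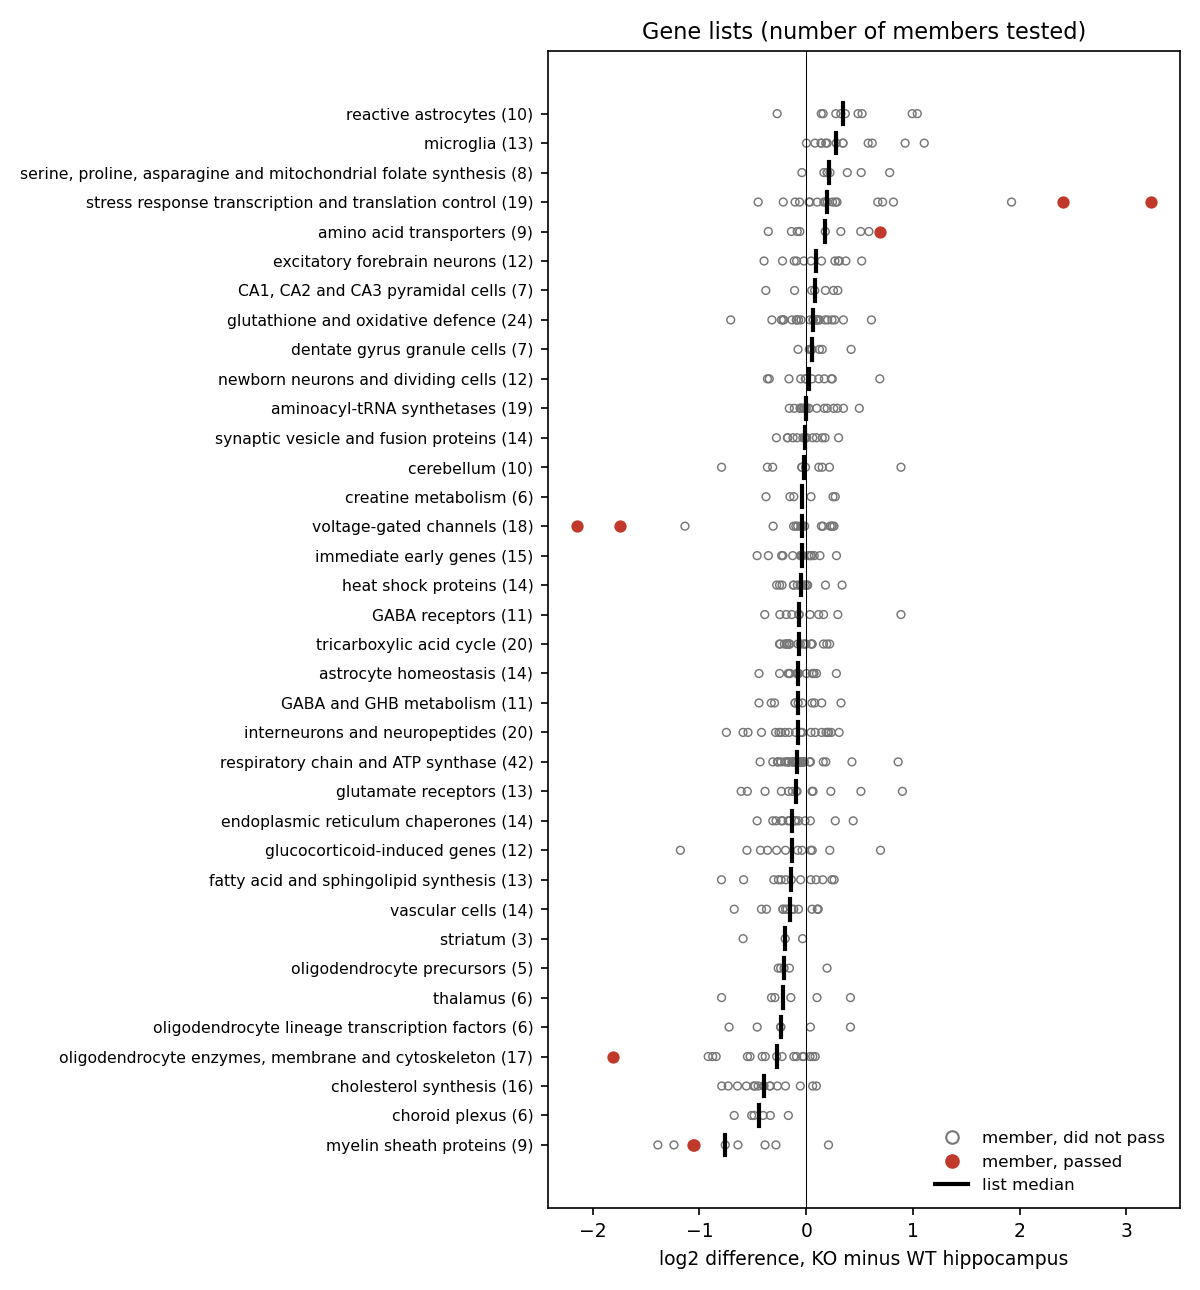
Log2 difference of KO minus WT hippocampus for every tested member of 36 gene lists, sorted by list median (black bar), with the number of members tested in brackets. Members that passed are filled red; 8 genes passed in all, and myelin sheath proteins have the lowest median (-0.76) and reactive astrocytes the highest (0.35).

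Several genes outside the lists came next by p and did not pass. Itgb4, an integrin subunit, read 15.7, 17.9 and 25.0 in KO and 96.0, 66.0 and 49.7 in WT (-1.83, adjusted p = 0.124), and passed without 3396 at -2.06 (adjusted p = 0.00823). Hk1, the main hexokinase of brain, read 767, 588 and 864 against 1456, 1339 and 1291 (-0.90, adjusted p = 0.124). Nudt4, which breaks down inositol pyrophosphates, read 471, 423 and 505 against 677, 613 and 693 (-0.50, adjusted p = 0.112), and passed with median scaling at -0.59 (adjusted p = 0.0393). In all 3 the KO values lay wholly below WT, and so did those of Atp2a2, the SERCA2 calcium pump (-0.36, adjusted p = 0.112), which passed at an adjusted p of 0.0314 when dim probe sets were not filtered out. On the higher side stood Akap8, an anchoring protein for protein kinase A, at 84.6, 72.1 and 73.0 against 19.6, 47.0 and 18.6 (1.57, adjusted p = 0.124). Its other 2 probe sets gave 0.42 and -0.36, so the direction of Akap8 is not settled. S100a6, a calcium-binding protein, read 206, 248 and 322 against 159, 149 and 176 (0.66, adjusted p = 0.184). Pdlim4, a protein of the actin cytoskeleton, Rfc5, a subunit of the clamp loader of DNA replication, and Ccdc186, a coiled-coil protein, had differences of 0.93, 0.63 and 0.50, each with KO wholly above WT.

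Genes near Aldh5a1 on chromosome 13 were examined because a knockout allele can carry flanking DNA of another strain. Of 79 probe sets within 20 Mb, 0 passed by limma and 7.59% had an unadjusted p under 0.05, against 8.41% of all probe sets. Their median log2 difference was 0.03. The lowest p among them was that of Idi1, the cholesterol synthesis gene described above.

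The KO effect in hippocampus was set beside that in the cerebellum and cortex of the same 6 animals, and the difference between effects was tested with the animal as a block. Of 8382 probe sets, 1 differed between hippocampus and cerebellum (0.0119%) and 0 between hippocampus and cortex (0%). At an unadjusted p under 0.05 there were 692 and 719. The 1 was the dim Septin4 probe set, whose log2 difference was -1.67 in hippocampus and 0.94 in cerebellum, a difference of -2.62 ± 0.37 (adjusted p = 0.0404). Against cortex, where its effect was 0.27, the difference was -1.94 (adjusted p = 0.315). The call was lost without each of 3363, 3389, 3403, 3406 and 3396, and without 3405 it stood at -2.76 (adjusted p = 0.0488). Without 3405 there were 5 such probe sets, namely Septin4, Ddx6 (-3.35, adjusted p = 0.00354), Xrn1 (-3.37, 0.00469), Ago2 (-2.60, 0.00469) and Cacna1g (-1.87, 0.0488). Without 3396 there were 3, namely Zic1, 1 probe set of Mobp and Mal. The Septin4 call was also lost when no floor or no intensity trend was used and with either other filter.

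The 3 genes that rose had effects above 0 in all 3 regions. Atf5 was higher by 2.41 in hippocampus, 2.01 in cortex (adjusted p = 0.00236) and 0.98 in cerebellum (adjusted p = 0.174). The difference between hippocampus and cerebellum, 1.43 ± 0.44, did not pass (adjusted p = 0.449). Nupr1 had effects of 3.23, 1.47 and 0.35 in the same order, and its difference from cerebellum, 2.89 ± 0.59, had an adjusted p of 0.177. Slc3a2 had 0.70, 0.45 and 0.14. Of these 3, Atf5 alone also passed in cortex. The stress response list as a whole had medians of 0.20 in hippocampus, -0.07 in cortex and 0.15 in cerebellum. Slc7a5, Psat1 and Asns, above 0 in hippocampus and cortex, had effects of -0.21, -0.22 and -0.13 in cerebellum.

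For the myelin genes, hippocampus stood closer to cortex than to cerebellum in size, although none of these differences passed. Mobp had effects of -1.05 in hippocampus, -1.40 in cortex (adjusted p = 0.000758) and 0.11 in cerebellum on its brightest probe set. The difference from cerebellum was -1.16 ± 0.21 (adjusted p = 0.123), and that from cortex was 0.35 ± 0.21 (adjusted p = 0.674). Gsn had -1.81, -1.89 (adjusted p = 0.00178) and -0.58, and Mag had -1.06, -0.83 and -0.37. The myelin sheath list had medians of -0.76, -0.82 and -0.02 in hippocampus, cortex and cerebellum, and cholesterol synthesis had -0.40, -0.31 and -0.19. These effects come from the same animals, so they are not independent of each other.

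Of the channels, Cacna1g had an effect of -1.74 in hippocampus, -0.18 in cortex and 0.16 in cerebellum. Its differences were -1.56 ± 0.34 from cortex (adjusted p = 0.315) and -1.90 ± 0.34 from cerebellum (adjusted p = 0.123), neither of which passed. Kcne1l had effects of -0.39 in cortex and -1.29 in cerebellum. In hippocampus it has only the bound given above, so no difference between regions is given for it. The reactive astrocyte list had medians of 0.35 in hippocampus, 0.12 in cortex and 0.08 in cerebellum, and the microglial list had 0.28, 0.26 and 0.09.

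**Figure D5:**
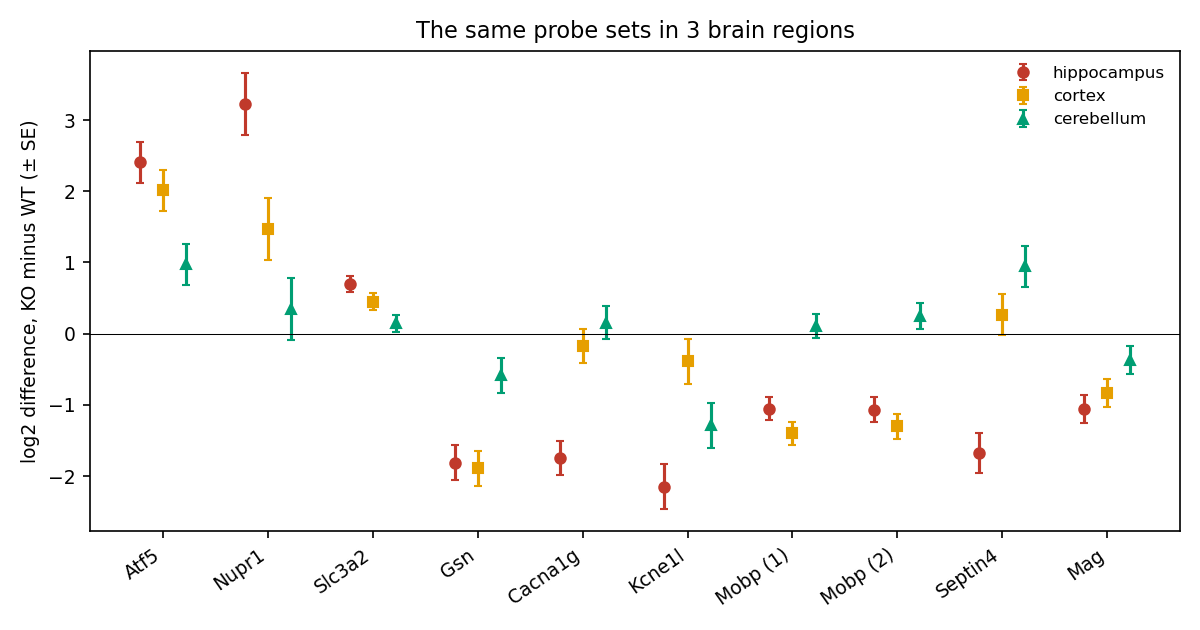
Log2 difference of KO minus WT with limma's standard error for the 10 probe sets that passed in hippocampus, in hippocampus (red circles), cortex (orange squares) and cerebellum (green triangles) of the same 6 animals; the hippocampal point of Kcne1l is a fitted value at the floor. Mobp (1) and Gsn lie far below 0 in hippocampus and cortex, Cacna1g in hippocampus alone of the 3 plotted points, and the dim Septin4 probe set lies below 0 in hippocampus and above 0 in cerebellum.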

How the data were processed

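Total RNA of 18 tissue samples, 1 array each, was measured, and per the labels replicates are separate animals. The authors deposited 1 intensity per probe set and array on a linear scale, already scaled so that every array has the same 2% trimmed mean (150.07 to 150.08, found from the values). The sources used here name no software. From 12488 probe sets, 66 controls were left out. Signals under the 20th percentile of all values (9.46) were raised to it before log2. A probe set was kept if at least 3 of the 18 arrays read it above that array's 40th percentile (8382). Group means were fitted to all 18 arrays with limma 3.58.1 in R 4.3.3 (12 residual degrees of freedom, intensity trend, two-sided, Benjamini-Hochberg adjusted over all probe sets, threshold 0.05). Between regions the animal was a fixed block (8 residual degrees of freedom). A single value in 3 against 3 animals cannot reach an exact permutation p under 0.1, so the tests are those of limma, which shares information on the spread among probe sets. Array number limits the precision.

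KO and WT hippocampus come from different animals, so no pairing joins them. The 3 arrays of an animal had residual correlations with a median of 0.135. With the animal as a replicate block (correlation 0.0786), 3 probe sets were higher and 8 lower.

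The probe annotation gave 1 symbol to 10833 probe sets and several to 396, and 10817 of the former were found in the GRCm38.p6 gene table. A gene was read by its brightest kept probe set. Some of the markers listed for hippocampus, and those listed for cerebellum, were named for region identity. Other named genes were all that passed and the next 12 by p in each direction. For each list, the members that passed were named, or else up to 4 of lowest p. Mbp, Gjb1, Pmp22, Phgdh, Csf1r, C1qa, Gad1, Aldh9a1 and Akr7a5 fall outside this rule and were chosen after their values were seen. Members and lists were chosen with earlier results of these data known. Fits were checked on simulated data. Alternatives were other scalings, floors, filters and variance models, the hippocampus arrays alone, and each animal left out. Leaving out the animal nearest to the other genotype widens a difference by construction, so a call gained that way is no added support. For probe sets uncalled in the main fit, the fits quoted with 1 animal left out are those in which they passed. A robust empirical Bayes step was added after seeing the data.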

Additional observations from a re-analysis of the deposited data

Results flagged for a closer look

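The KO effect on the dim Septin4 probe set differed between regions: hippocampus minus cerebellum was -2.62 on the log2 scale (limma with the animal as a block, adjusted p = 0.0404). In hippocampus the KO values were lower, with an effect of -1.67, and in cerebellum the effect was 0.94. The brighter Septin4 probe set had effects of -0.84 and -0.20. As given above, the call on the dim probe set was lost when any single animal but 3405 was left out. It was also lost with no floor, no intensity trend or either other filter, and 1 of its hippocampal KO values was under the floor.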

How the results depend on the processing

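Of the 2516 values of named probe sets under alternatives, 2429 kept their direction and their side of the threshold, 35 lost and 26 gained significance, 26 uncalled values changed sign and 0 called values reversed. Of the 159 named probe sets only 10 passed in the main fit, so most values that were kept belong to probe sets that stayed uncalled. The 35 losses all fell on those 10. The count of higher probe sets, 3, became 5 with no filter and 0 on the hippocampus arrays alone, and ran from 2 to 7 when single animals were left out. The count of lower ones, 7, became 12 with median scaling and 1 on the hippocampus arrays alone, and ran from 1 (without 3405) to 18 (without 3396). On the hippocampus arrays alone there are 4 residual degrees of freedom. The 1 difference from cerebellum became 0 with no floor, no filter, the 60th percentile filter or no intensity trend, and 2 with no replicate block. It ran from 0 to 5 when animals were left out. The 0 differences from cortex became 2 with no filter and ran from 0 to 1. For these counts the cause was not tested. The replicate block moved the lower count from 7 to 8 by adding Mog and changed no other call. Of 576 list medians, 522 moved by less than the SD of the list's medians on the 3 KO arrays, each against the WT mean. That spread leaves out differences among WT arrays. Under a scaling, 5 lists changed the sign of their median. The lists with a median within 0.1 of 0 had medians of -0.16 to 0.17 when single animals were left out. Values under the floor give only a bound.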
